A study of Mus musculus with 13 samples.

Results

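The genes described here are 41 genes of DNA replication and S phase, listed by symbol and grouped by role, followed on Affymetrix mouse arrays through 5 groups of UG26-1B6 stroma. All 13 samples are of UG26-1B6, 1 clone of stroma from the urogenital ridge of mouse embryos at midgestation. Stroma was profiled after 1, 2 and 3 days of co-culture with LSK cells (n = 3, 3 and 2), in stroma given fresh medium alone and taken 24 h later (medium control, n = 2), and before co-culture (day 0, n = 3). LSK stands for lineage-negative, Sca-1-positive and c-Kit-positive, a sorted fraction in which blood stem and progenitor cells are enriched. Stroma that received LSK cells had been grown to confluence and irradiated with 30 Gy, while day 0 cells were collected with trypsin. The sources used here do not say if day 0 and medium cells were also irradiated, or by what means LSK cells were removed before RNA was taken. Titles call the replicates biological and the design text calls them technical, so every p-value measures only the spread between these arrays.

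Of the 41 listed genes, 40 had a probe set annotated with that symbol alone, and all 40 passed a filter on low values and were tested among 12205 genes. Chaf1a, the large subunit of chromatin assembly factor 1, had no such probe set and has no value here. Each gene was read from its probe set with the highest mean over the 13 arrays. Levels are log2 values as deposited and are compared only within a probe set. A change is a log2 difference between group means with its standard error (SE), a fold is its linear size, and a gene passed when its Benjamini-Hochberg adjusted p over all 12205 genes was under 0.05.

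DNA replication starts when the origin recognition complex, Cdc6 and Cdt1 load the Mcm2 to Mcm7 ring onto DNA in G1. Cdc45 and the GINS complex then turn the ring into an active helicase, primase and the polymerases copy the strands, and the Pcna clamp holds the polymerases in place. Many of these genes are transcribed as cells enter S phase under E2F factors, and their mRNA is low in resting cells.

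2 arrays stood apart. Replicate 1 of LSK day 2 had a median correlation of 0.708 with the other arrays, against 0.912 to 0.961 for the other 12. Its Gapdh 3' probe set exceeded the 5' one by 8.96, and that of LSK day 3 replicate 2 by 5.79, against 2.15 to 3.82 on the other 11 arrays. Ptprc, the leukocyte phosphatase CD45, read 10.93 and 9.18 on these 2 arrays, 2.69 to 7.20 on the other co-culture arrays, and the lowest value of the table, 2.28, on all 5 day 0 and medium arrays. Of the other 11 arrays, LSK day 2 replicate 2 had the lowest median correlation, 0.912. Its actin 3' probe set exceeded the 5' one by 4.16, against 2.18 to 3.13 on the rest of these 11. The summed level of 23 tested blood stem, progenitor and myeloid markers of 30 listed lay at 9.73 to 11.12 on LSK day 1 arrays, 11.96 to 15.87 on day 2 and 13.12 to 13.88 on day 3, against 8.32 to 8.39 on medium and 8.44 to 8.60 on day 0 arrays. Kit, Flt3 and Spi1 did not pass the filter on low values. That of 17 stroma markers of 19 listed was 14.96 to 15.57, 13.65 to 15.09 and 15.00 to 15.05 on LSK days 1 to 3, 15.51 to 15.65 in medium and 15.42 to 16.31 at day 0. The mean of the poly-A spike-in probe sets was 10.09 to 14.36 on LSK arrays, 4.68 and 4.89 on medium arrays and 5.59 to 8.62 on day 0 arrays. In such bulk samples, fewer cells of a type and less RNA per cell cannot be told apart.

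In RefSeq promoter windows of GRCm38.p6, from 250 bases before to 50 bases after a start, 34 of the 41 genes had an entry, with 40 windows in all. The E2F letters TTTCCCGC, TTTGGCGC, TTTCGCGC and TTTGCCGC were searched on both strands and were present in windows of 14 of the 34 genes. That was 35% of the 40 windows, against 2.85% of 21263 windows of protein-coding genes. The stretches below, with the E2F letters in capitals, belong to genes whose medium arrays both exceeded every day 0 and LSK day 1 array and show that the letters sit on either strand. In Mcm6 and Mcm5 the first run of capitals is a pair of overlapping matches on opposite strands, so that Mcm6 holds 3 matches and Mcm5 holds 2.
Mcm6 (chr1:128359725-128359835, minus strand): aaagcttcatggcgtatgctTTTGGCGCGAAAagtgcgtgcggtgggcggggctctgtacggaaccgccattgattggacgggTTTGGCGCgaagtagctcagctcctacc
Mcm5 (chr8:75109336-75109387, plus strand): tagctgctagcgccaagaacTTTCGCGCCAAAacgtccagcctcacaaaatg
Cdc6 (chr11:98907993-98908040, plus strand): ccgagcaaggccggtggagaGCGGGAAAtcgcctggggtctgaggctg
Orc1 (chr4:108579407-108579454, plus strand): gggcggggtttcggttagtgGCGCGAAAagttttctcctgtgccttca
Pole2 (chr12:69228153-69228200, minus strand): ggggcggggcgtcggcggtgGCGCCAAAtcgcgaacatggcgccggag
Uhrf1 (chr17:56304108-56304155, plus strand): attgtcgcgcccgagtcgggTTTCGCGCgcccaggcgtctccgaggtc

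Pcna and Chaf1b passed the test against the medium control, and their windows hold none of the E2F letters. They are shown whole, with CCAAT boxes (CCAAT) and GC boxes (GGGCGG), searched on both strands, in capitals. CCAAT was present in 57.5% of the windows of the listed genes and in 38.2% of those of protein-coding genes, and GGGCGG in 72.5% and 46.2%. Pcna holds 1 CCAAT box and 2 GC boxes, and Chaf1b holds 5 GC boxes and no CCAAT box.
Pcna (chr2:132253131-132253430, minus strand): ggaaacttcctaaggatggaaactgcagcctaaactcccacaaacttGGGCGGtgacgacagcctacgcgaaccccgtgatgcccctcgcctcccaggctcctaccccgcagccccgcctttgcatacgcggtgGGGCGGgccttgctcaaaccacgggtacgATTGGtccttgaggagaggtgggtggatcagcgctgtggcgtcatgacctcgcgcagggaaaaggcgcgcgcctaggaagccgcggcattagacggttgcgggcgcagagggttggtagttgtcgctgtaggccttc
Chaf1b (chr16:93883651-93883950, plus strand): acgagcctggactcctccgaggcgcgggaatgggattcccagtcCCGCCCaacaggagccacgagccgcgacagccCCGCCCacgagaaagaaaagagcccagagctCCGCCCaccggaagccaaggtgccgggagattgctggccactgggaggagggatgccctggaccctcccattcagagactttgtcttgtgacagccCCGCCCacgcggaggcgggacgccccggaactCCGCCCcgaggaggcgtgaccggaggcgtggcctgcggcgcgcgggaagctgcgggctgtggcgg

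A match is a run of letters and not a measured binding site. Among the 33 tested genes with a window, the 14 with E2F letters had a median change of -0.94 between LSK day 1 and medium, and the 19 without them one of -1.10. Pcna and Chaf1b are among these 19, Prim2 had no window, and none of the 14 passed the test on the probe sets used. With each probe set tested alone, a further probe set was lower for Mcm3, Mcm5 and Mcm6 of the 14 and for Rrm1 and Rpa2 of the 19. Of all probe sets, 5.13% were lower. Without LSK day 2 replicate 1, Cdc6 and Pole2 of the 14 and Prim1 and Orc6 of the 19 also passed, and 17.2% of all genes.

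The first question was how stroma with LSK cells for 1 day differed from stroma with a change of medium for the same 24 h. Pcna, Prim2 and Chaf1b were lower with LSK cells, by 3.59-fold, 4.65-fold and 5.98-fold, and no listed gene was higher. These 3 are 7.5% of the 40 tested genes. Of all 12205 genes, 5.2% passed in either direction and 3.05% were lower. In 25 of the 40 genes (62.5%) every LSK day 1 array lay below both medium arrays, against 31.8% of all genes, and in 2 (Mcm7 and Rfc2) every LSK day 1 array lay above, against 30.7%. The median change of the 40 genes was -0.93, with 33 (82.5%) below 0, and that of all genes was 0, with 44% below 0. At an unadjusted p under 0.05, 13 of the genes (32.5%) were lower and 1 (2.5%) was higher, against 11.9% and 9.04% of all genes. The listed genes were chosen with results of these arrays known, so their counts describe them and test nothing about the list.

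**Figure D1:**
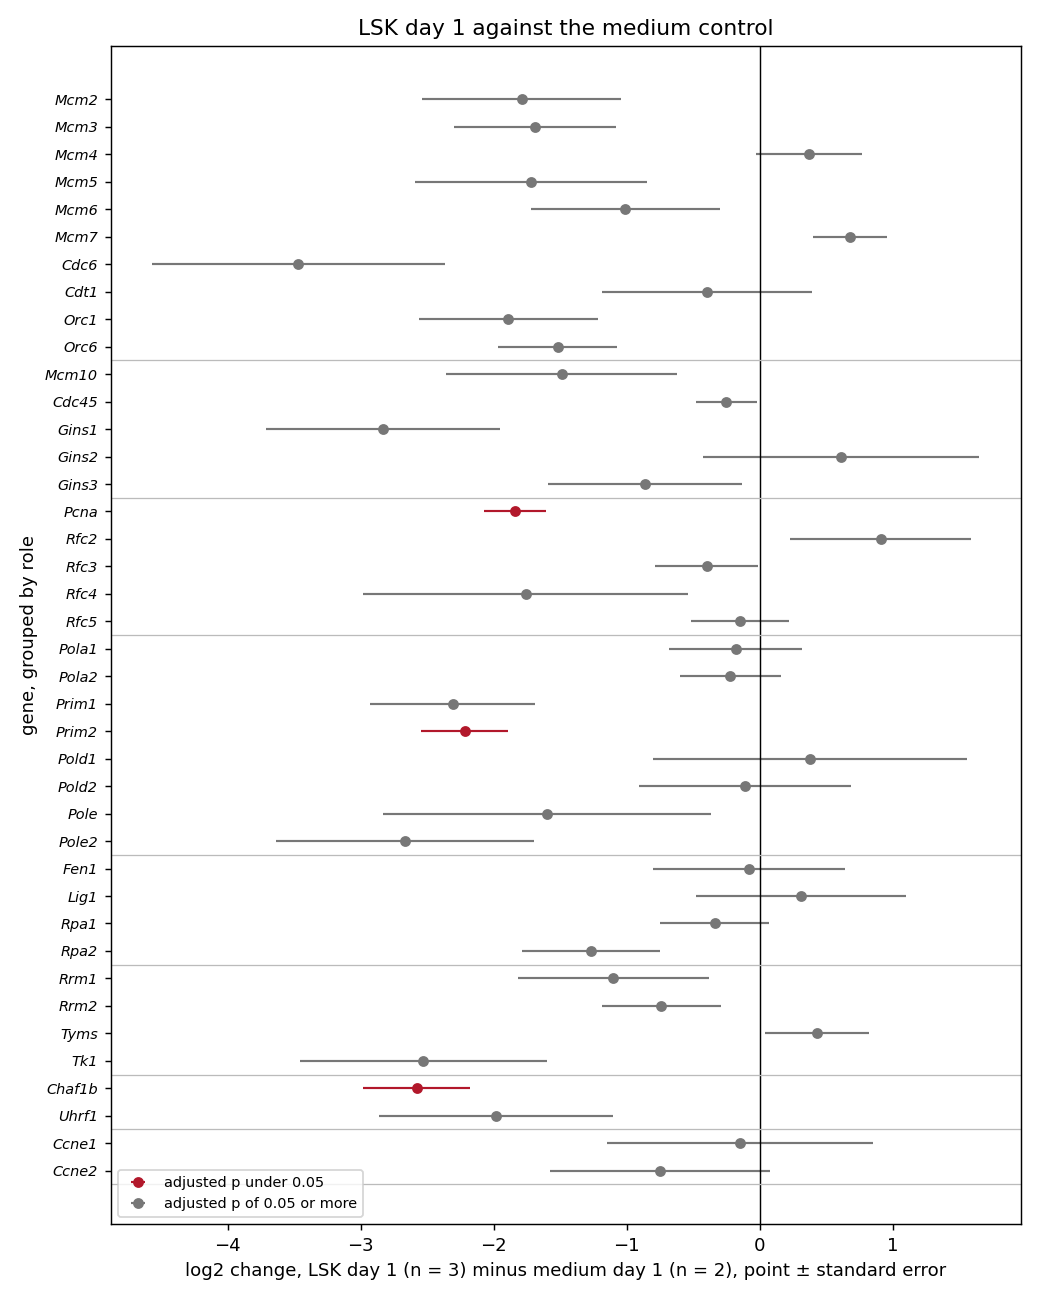
Change of each of the 40 tested genes between LSK day 1 (n = 3) and medium day 1 (n = 2). The horizontal axis is the log2 difference, points are differences of means, bars are standard errors, and red marks the 3 genes with an adjusted p under 0.05. Most points lie left of 0, with Cdc6 farthest at -3.47 and Rfc2 highest at 0.91.

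Pcna, the sliding clamp that holds DNA polymerases on their template, read 11.88, 11.39 and 11.31 on LSK day 1 arrays, against 13.41 and 13.33 on medium arrays. The groups lay far apart, at 11.53 ± 0.31 with LSK cells (SD, n = 3) and 13.37 ± 0.05 in medium (SD, n = 2). The change was -1.84 ± 0.23 (SE, limma, adjusted p = 0.0078). Against day 0, Pcna also passed on LSK days 1 and 2. It read 11.47, 11.88 and 11.71 on LSK day 2 and 11.65 and 11.94 on day 3, against 12.60, 12.89 and 12.94 at day 0. All 8 co-culture arrays therefore lay below all 5 arrays without LSK cells.

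Prim2, the large primase subunit, read 6.96, 6.68 and 6.60 on LSK day 1 arrays, against 8.93 and 9.00 on medium arrays. Both medium arrays were above every other array on this probe set. The change was -2.22 ± 0.33 (SE, limma, adjusted p = 0.012). Prim2 read 7.21, 7.46 and 6.98 on LSK day 2 and 6.94 and 6.18 on day 3, against 8.01, 6.98 and 7.50 at day 0. The LSK day 1 arrays were also below all day 0 arrays, with a change of -0.75 ± 0.30 that did not pass. The second probe set of Prim2 had a change from medium of -0.53 and did not pass. On it LSK day 2 replicates 1 and 2 (7.82 and 7.55) and LSK day 3 replicate 2 (7.42) exceeded both medium arrays (6.67 and 7.31).

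Chaf1b, the middle subunit of the chaperone that places histones on new DNA, read 5.25, 5.76 and 4.65 on LSK day 1 arrays, against 7.94 and 7.66 on medium arrays. The change was -2.58 ± 0.40 (SE, limma, adjusted p = 0.0129). The medium arrays were again above every other array. Chaf1b read 4.22, 3.72 and 4.25 on LSK day 2 and 4.70 and 4.41 on day 3, against 5.68, 4.51 and 5.21 at day 0. LSK day 1 and day 0 overlapped, with a change of 0.09 ± 0.35.

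With medium replicate 1 or medium replicate 2 left out, 0 of the 40 genes passed, against 0.18% and 0.0574% of all genes. The medium control is then 1 array, assumed to vary like the other groups. The changes stayed about as large, at -1.81 and -1.88 for Pcna (adjusted p = 0.112 and 0.0974), -2.25 and -2.18 for Prim2 (adjusted p = 0.13 for both) and -2.44 and -2.72 for Chaf1b (adjusted p = 0.146 and 0.112, limma). Without LSK day 1 replicate 3 only Pcna passed (adjusted p = 0.0441), with Prim2 at 0.0567 and Chaf1b at 0.0528, and without LSK day 1 replicate 2 Prim2 was at 0.0533. Of all genes, 0.418% passed without replicate 3. Without LSK day 2 replicate 1, 7 genes passed, all lower (Pcna, Cdc6, Prim1, Prim2, Pole2, Chaf1b and Orc6), while 17.2% of all genes did. Without either LSK day 3 array, 5 genes passed, and 5.87% of all genes. LSK day 1 replicate 3 was the lowest of its group in 33 of the 40 genes (82.5%, against 30.4% of all genes). The spike-in and blood marker readings given above also separated the LSK from the medium arrays, and their part in these differences was not tested. Irradiation is stated for stroma with LSK cells alone. If medium cells were not irradiated, LSK cells and irradiation cannot be told apart in this comparison.

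**Figure D2:**
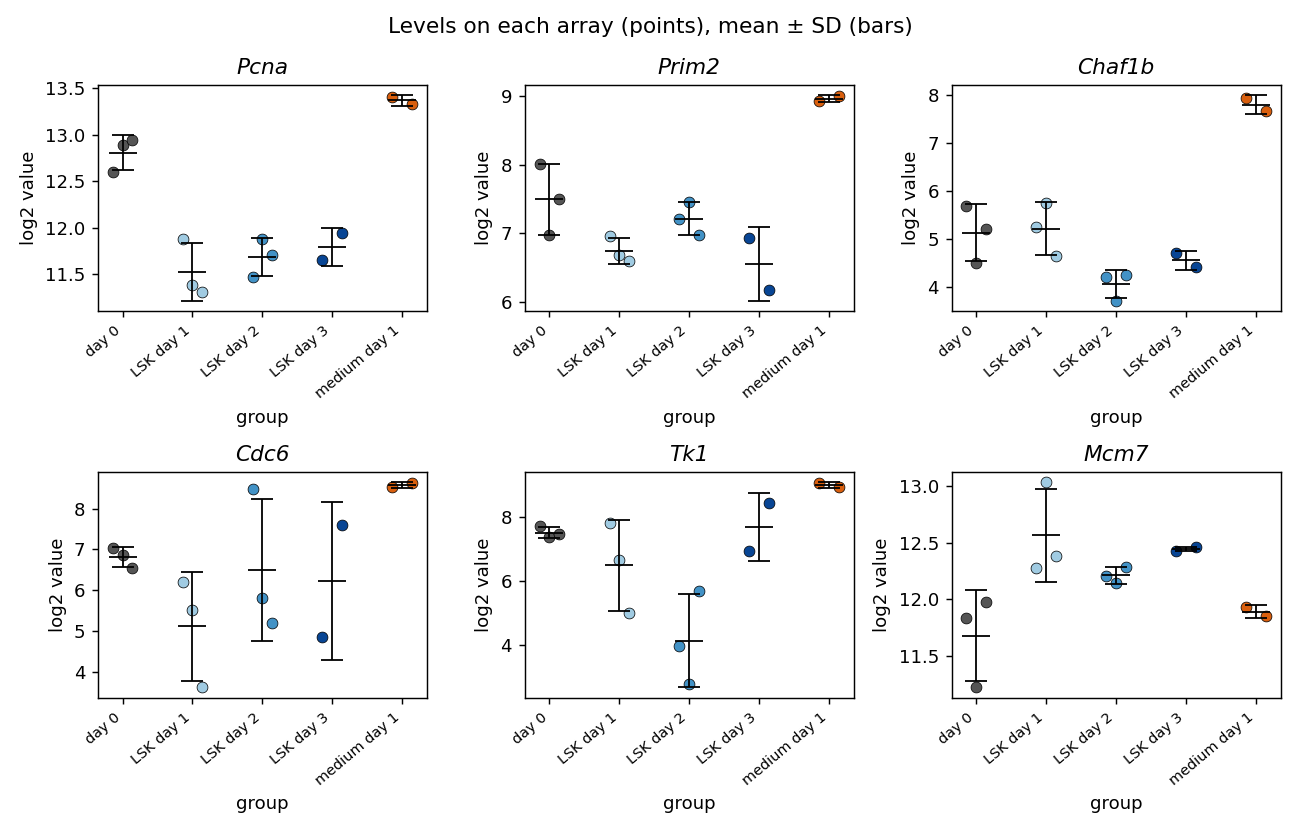
Log2 values of 6 genes on each array (points) with mean ± SD (bars) for day 0 (n = 3), LSK days 1 to 3 (n = 3, 3 and 2) and medium day 1 (n = 2). On the probe sets used, both medium arrays of Pcna, Prim2, Chaf1b, Cdc6 and Tk1 lie above all other arrays. Mcm7, chosen for its opposite order on the probe set used, has its medium arrays below all LSK arrays.

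Among the 10 tested genes of origin recognition and licensing, 0 passed and the median change between LSK day 1 and medium was -1.61. Cdc6, which helps load the Mcm ring, had the lowest change of the 40 genes. It read 6.21, 5.51 and 3.63 on LSK day 1 arrays, against 8.53 and 8.63 on medium arrays. It read 8.48, 5.81 and 5.20 on LSK day 2 and 4.87 and 7.60 on day 3, against 7.03, 6.87 and 6.54 at day 0. The LSK day 1 arrays were all below day 0 and all below medium but spread widely, and the change from medium of -3.47 ± 1.10 had an adjusted p of 0.103 (limma).

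Orc1, the largest subunit of the origin recognition complex, read 3.85, 3.94 and 3.76 on LSK day 1 arrays, against 5.64 and 5.84 on medium arrays. It read 2.47, 3.85 and 3.95 on LSK day 2 and 3.12 and 5.65 on day 3, against 3.94, 3.69 and 4.46 at day 0. LSK day 3 replicate 2 was the only co-culture array at the level of the medium arrays. The change from medium was -1.89 ± 0.67 (limma, adjusted p = 0.141). Orc6, another subunit of the complex, changed by -1.52 ± 0.45 (limma, adjusted p = 0.0848).

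Mcm2, a subunit of the replicative helicase ring, read 9.03, 9.00 and 8.59 on LSK day 1 arrays, against 10.75 and 10.56 on medium arrays. It read 9.43, 6.42 and 8.15 on LSK day 2 and 7.98 and 9.33 on day 3, against 9.37, 8.51 and 8.54 at day 0. On this probe set the medium arrays exceeded the other 11, and LSK day 1 overlapped day 0. On another probe set of Mcm2 the 2 arrays that stood apart read 9.96 and 9.73, above medium at 9.30 and 9.35. Mcm5, a further ring subunit, read 11.24, 10.38 and 9.55 on LSK day 1 arrays, against 12.22 and 12.01 on medium arrays. It read 12.85, 10.02 and 10.11 on LSK day 2 and 9.96 and 11.73 on day 3, against 10.50, 11.05 and 10.77 at day 0. On this probe set LSK day 2 replicate 1 exceeded the medium arrays, while another probe set of Mcm5 read 3.00 there, against 9.51 and 9.44 in medium. The changes from medium were -1.79 ± 0.75 for Mcm2 and -1.72 ± 0.87 for Mcm5, neither past the threshold (limma, adjusted p = 0.208 and 0.307).

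The other ring subunits did not move as one on the probe sets used. Mcm3 and Mcm6 changed by -1.69 ± 0.61 and -1.01 ± 0.71 between LSK day 1 and medium, and Mcm4 by 0.37 ± 0.40. Mcm7 had all LSK day 1 arrays (12.28 to 13.04) above both medium arrays (11.85 and 11.93), with a change of 0.68 ± 0.28. On this probe set all 8 co-culture arrays of Mcm7 (12.14 to 13.04) lay above all 5 arrays without LSK cells (11.22 to 11.98). Further probe sets of Mcm7 changed by 1.12, 0.80 and -0.12 from medium, and none passed. The last of them read 2.85 and 3.07 on LSK day 2 replicates 1 and 2 and 4.44 on LSK day 3 replicate 2, against 7.83 to 8.64 at day 0. None of these 4 genes passed. Cdt1, the partner of Cdc6 in loading the ring, read 10.71, 11.00 and 10.00 on LSK day 1 arrays, against 11.02 and 10.91 on medium arrays. It read 12.15, 11.07 and 10.07 on LSK day 2 and 9.32 and 12.08 on day 3, against 10.11, 9.36 and 9.50 at day 0. LSK day 1 and medium overlapped for Cdt1, and the 2 arrays that stood apart gave its highest values. On its other probe set LSK day 2 replicate 1 was the lowest array, at 4.04, and LSK day 3 replicate 2 the highest, at 8.78.

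Of the 5 tested genes of helicase activation, 0 passed, and the median change from medium was -0.86. Gins1, a GINS subunit, read 7.21, 7.66 and 5.68 on LSK day 1 arrays, against 9.61 and 9.74 on medium arrays. It read 5.68, 7.99 and 6.13 on LSK day 2 and 6.67 and 9.17 on day 3, against 8.23, 8.70 and 8.83 at day 0. On this probe set every LSK day 1 and day 2 array lay below all day 0 and medium arrays. On the other probe set of Gins1, LSK day 2 replicate 1 read 6.61, against 4.69 and 4.98 in medium. The change of -2.83 ± 0.88 from medium had an adjusted p of 0.0964 (limma).

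Cdc45, the partner of GINS in the active helicase, read 3.26, 3.23 and 3.16 on LSK day 1 arrays, against 3.36 and 3.58 on medium arrays. It read 3.23, 3.23 and 3.08 on LSK day 2 and 3.16 and 3.97 on day 3, against 3.23 on all 3 day 0 arrays. Repeated values of 3.23 mark a probe set near its lowest reading, which leaves little room to see a decrease. Even so, Cdc45 is counted among the genes without overlap between LSK day 1 and medium, at a change of -0.25 ± 0.23. It is also counted among those whose medium arrays exceeded every day 0 and LSK day 1 array. Mcm10 and Gins3 changed by -1.49 ± 0.87 and -0.86 ± 0.73 from medium, and Gins2 by 0.61 ± 1.04.

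Apart from Pcna, the clamp group holds the loader subunits Rfc2, Rfc3, Rfc4 and Rfc5, which open the clamp and place it on DNA. Their changes between LSK day 1 and medium ran from -1.76 ± 1.22 for Rfc4 to 0.91 ± 0.68 for Rfc2, and none passed. Rfc4 read 11.73 on LSK day 2 replicate 1, against 7.31 and 7.45 on the other 2 arrays of that group. Its other probe set read 3.93 on that array, against 4.53 and 7.87.

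Among the 8 tested polymerase and primase genes, Prim2 passed and the median change from medium was -0.91. Prim1, the catalytic primase subunit, read 9.82, 10.34 and 9.39 on LSK day 1 arrays, against 12.10 and 12.24 on medium arrays. It read 11.32, 9.60 and 9.37 on LSK day 2 and 9.63 and 11.05 on day 3, against 11.25, 10.35 and 10.69 at day 0. Both medium arrays were above all others. The change of -2.31 ± 0.62 had an adjusted p of 0.0633 (limma), so the subunits of primase shared their direction, and 1 of the 2 passed.

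Pola1, the catalytic subunit of the polymerase that extends the primers, read 9.77, 9.23 and 8.84 on LSK day 1 arrays, against 9.23 and 9.68 on medium arrays. It read 8.61, 10.43 and 9.12 on LSK day 2 and 9.30 and 9.95 on day 3, against 8.95, 9.25 and 8.95 at day 0. Its groups overlapped except that both day 3 arrays lay above day 0. Pole, the catalytic subunit of the leading strand polymerase, read 6.92, 6.99 and 5.72 on LSK day 1 arrays, against 8.16 and 8.12 on medium arrays. It read 9.49, 5.09 and 5.39 on LSK day 2 and 5.72 and 7.90 on day 3, against 7.23, 5.82 and 5.72 at day 0. Pole was lower on each LSK day 1 array than in medium, and LSK day 2 replicate 1 was its highest array. The changes from medium were -0.18 ± 0.50 for Pola1 and -1.60 ± 1.23 for Pole. Pole2, its partner subunit, changed by -2.67 ± 0.97 (limma, adjusted p = 0.149), while Pola2, Pold1 and Pold2 lay between -0.22 and 0.38.

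Of the 4 tested genes of the lagging strand and single strand binding, 0 passed, with a median change from medium of -0.21. Fen1, which removes the flap before fragments are joined, read 11.07, 11.00 and 10.21 on LSK day 1 arrays, against 10.85 and 10.83 on medium arrays. It read 12.52, 11.40 and 10.04 on LSK day 2 and 10.50 and 12.23 on day 3, against 10.71, 9.73 and 9.77 at day 0. Its LSK day 1 and medium values overlapped. Lig1, the ligase that joins the fragments, read 11.07, 10.15 and 9.19 on LSK day 1 arrays, against 9.68 and 9.98 on medium arrays. It read 7.29, 9.90 and 9.86 on LSK day 2 and 10.17 and 10.00 on day 3, against 9.33, 10.46 and 9.97 at day 0. Lig1 was one of 2 listed genes more than 2-fold lower on LSK day 2 replicate 1 than on both other arrays of its group. Rpa2, which coats single strands, changed by -1.27 ± 0.52 and Rpa1 by -0.34 ± 0.41 from medium.

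In nucleotide supply, 0 of 4 tested genes passed, with a median change from medium of -0.92. Tk1, the thymidine kinase of S phase, read 7.84, 6.66 and 5.00 on LSK day 1 arrays, against 9.09 and 8.96 on medium arrays. It read 3.96, 2.76 and 5.68 on LSK day 2 and 6.95 and 8.45 on day 3, against 7.72, 7.38 and 7.47 at day 0. All LSK day 2 arrays lay below all day 0 arrays, with a change of -3.39 ± 0.83 and an adjusted p of 0.0655 (limma). Tk1 was low on LSK day 2 replicate 1, where Mcm5, Pole and Rfc4 were high on the probe sets used. Other probe sets of Mcm5 and Rfc4 were low there too, at 3.00 and 3.93, against 7.03 to 8.46 and 8.95 to 9.95 at day 0.

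Rrm1, the large subunit of ribonucleotide reductase, read 10.79, 10.07 and 9.91 on LSK day 1 arrays, against 11.31 and 11.41 on medium arrays. It read 10.61, 7.87 and 10.32 on LSK day 2 and 9.94 and 10.88 on day 3, against 10.82, 11.50 and 10.76 at day 0. LSK day 1 lay below medium without overlap, by a change of -1.10 ± 0.72 that did not pass. Rrm2, the small subunit, read 12.26, 12.71 and 12.29 on LSK day 1 arrays, against 13.09 and 13.23 on medium arrays. It read 12.64, 12.04 and 12.27 on LSK day 2 and 12.10 and 13.08 on day 3, against 12.38, 10.94 and 11.10 at day 0. The medium arrays were highest, and the change was -0.74 ± 0.45. Tyms, thymidylate synthase, read 3.73, 2.45 and 2.45 on LSK day 1 arrays and 2.45 on both medium arrays. It read 2.45, 2.45 and 2.28 on LSK day 2 and 2.45 and 3.28 on day 3, against 2.45, 2.46 and 2.45 at day 0. This probe set sat at its floor on most arrays and carries no usable comparison.

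Uhrf1, which guides maintenance methylation to new DNA, read 8.25, 7.78 and 6.71 on LSK day 1 arrays, against 9.48 and 9.64 on medium arrays. It read 9.51, 6.89 and 7.07 on LSK day 2 and 7.07 and 9.32 on day 3, against 8.36, 7.54 and 7.41 at day 0. The LSK day 1 arrays were below medium and overlapped day 0, with a change from medium of -1.98 ± 0.88 (limma, adjusted p = 0.239).

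The E cyclins, which drive Cdk2 at the entry into S phase, did not pass either. Ccne1 read 8.05, 7.25 and 6.21 on LSK day 1 arrays, against 7.25 and 7.39 on medium arrays. It read 10.24, 8.63 and 6.57 on LSK day 2 and 6.86 and 9.01 on day 3, against 6.62, 7.25 and 6.51 at day 0. On this probe set Ccne1 overlapped between LSK day 1, medium and day 0. Its other probe set read 6.36, 5.58 and 4.67 on LSK day 1 arrays, all below medium at 6.87 and 6.83. That change of -1.31 ± 1.01 did not pass, and LSK day 2 replicate 1 read 5.34 there. Ccne2 read 8.28, 7.50 and 8.02 on LSK day 1 arrays, against 8.29 and 9.07 on medium arrays. It read 7.04, 7.26 and 8.90 on LSK day 2 and 6.91 and 9.35 on day 3, against 6.92, 8.68 and 8.62 at day 0. The changes from medium were -0.15 ± 1.00 for Ccne1 and -0.75 ± 0.83 for Ccne2.

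The second question was how the medium control compared with stroma before co-culture. Chaf1b was higher in medium, by 6.36-fold, with 7.94 and 7.66 on medium arrays, against 5.68, 4.51 and 5.21 on day 0 arrays (2.67 ± 0.40, limma, adjusted p = 0.0307). It was the only 1 of the 40 genes to pass (2.5%), while 0.328% of all genes passed in either direction and 0.221% were higher. In 30 of the 40 genes (75%) both medium arrays lay above all 3 day 0 arrays, against 20.6% of all genes, and in 0 did both lie below, against 22.7%. The median change was 1.00, with 37 genes (92.5%) above 0, and that of all genes was 0, with 44.1% above 0. Polymerase and primase genes had a median of 1.43 and licensing genes one of 1.37.

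At an unadjusted p under 0.05, 12 of the 40 genes were higher in medium and 0 lower, against 4.9% and 4.55% of all genes. Rrm2 (1.68 ± 0.45, adjusted p = 0.208), Rpa2 (1.83 ± 0.52, adjusted p = 0.234), Mcm3 (1.87 ± 0.61, adjusted p = 0.327) and Pole2 (2.33 ± 0.97, adjusted p = 0.476) were among them, all by limma. With 1 medium array left out and the other assumed to vary like the other groups, the Chaf1b change was 2.53 without replicate 1 and 2.80 without replicate 2, with adjusted p of 0.344 and 0.273 (limma). It also missed the threshold without day 0 replicate 2 or 3 (0.0846 and 0.0847) and without LSK day 1 replicate 1, 2 or 3 (0.0726, 0.0535 and 0.0546). Without day 0 replicate 1, 3 genes passed, and 1.12% of all genes.

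LSK day 1 and day 0 differed in 1 of the 40 genes, Pcna, which was 2.43-fold lower with LSK cells (-1.28 ± 0.21, limma, adjusted p = 0.0224). That is 2.5% of the genes, while 2.15% of all genes passed and 1.33% were lower. In 5 genes all LSK day 1 arrays lay above day 0 (17.7% of all genes) and in 5 below (21.3%). The median change of the 40 genes was 0.16, with 23 above 0 (57.5%), and that of all genes was 0, with 48.4% above 0. The comparisons of medium, LSK day 1, LSK day 2 and LSK day 3 with day 0 share the 3 day 0 arrays, and those of LSK day 1 with medium and with day 0 share the LSK day 1 arrays.

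Read across these 3 groups, both medium arrays exceeded all 3 day 0 and all 3 LSK day 1 arrays in 22 of the 40 genes (55%), against 14.1% of all genes. In 12 of the 40 (30%, against 10.2% of all genes) they exceeded all other 11 arrays on the probe sets used. These were Pcna, Mcm2, Mcm3, Cdc6, Gins1, Prim1, Prim2, Pole2, Rrm2, Tk1, Chaf1b and Rpa2. Further probe sets of Prim1, Rrm2 and Rpa2 kept this order, those of Mcm3 were mixed, and those of Mcm2, Prim2 and Gins1 did not keep it. On LSK day 2 replicate 1 these last read 9.96, 7.82 and 6.61, against 9.30 and 9.35, 6.67 and 7.31, and 4.69 and 4.98 in medium. With LSK day 2 replicate 1 and LSK day 3 replicate 2 left out, the count was 21 (52.5%, against 12.9% of all genes).

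**Figure D3:**
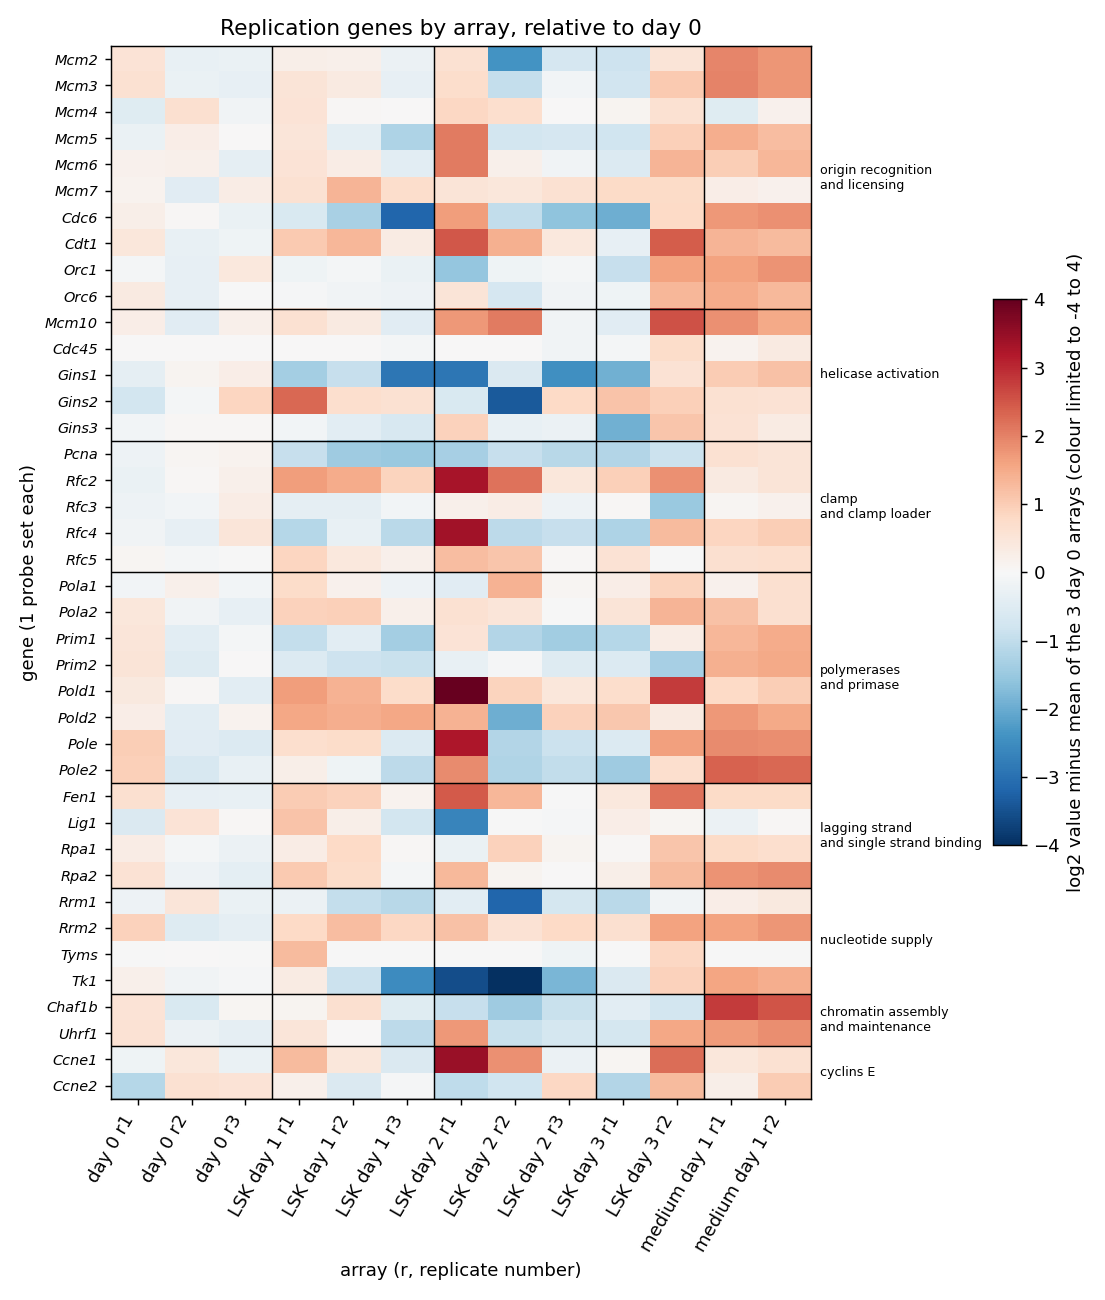
Log2 value of each of the 40 tested genes on each of the 13 arrays, minus that gene's mean on the 3 day 0 arrays, with red above and blue below. Rows are grouped by role, columns by group. Both medium columns are red for most genes, with 37 and 39 of the 40 above the day 0 mean. Within co-culture this number was highest on LSK day 3 replicate 2 (34), LSK day 1 replicate 1 (29) and LSK day 2 replicate 1 (26).

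On LSK day 2, Pcna was 2.18-fold lower than at day 0 (-1.12 ± 0.21, limma, adjusted p = 0.0352) and the other 39 genes did not pass. That is 2.5% of the genes, while 2.26% of all genes passed and 1.62% were lower. In 3 genes all LSK day 2 arrays lay above day 0 (6.46% of all genes) and in 5 below (16.2%), which were Pcna, Gins1, Rrm1, Tk1 and Chaf1b. On LSK day 3, 0 genes passed by limma, against 0.819% of all genes, while 3 were higher and 2 lower at an unadjusted p under 0.05 (7.5% and 5%, against 5.87% and 7.92% of all genes). Pcna had a change from day 0 of -1.01 ± 0.23 on day 3, with an adjusted p of 0.0915, and of 0.025 when LSK day 2 replicate 1 was left out of the fit, where 7.69% of all genes passed. In 7 genes both LSK day 3 arrays lay above day 0 (15% of all genes) and in 2, Pcna and Prim2, below (20.5%). The median change of the 40 genes from day 0 was 0.11 on day 2 and 0.36 on day 3, against -0.29 and 0 for all genes.

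The Pcna calls against day 0 were close to the threshold. With 1 array left out in turn, the change stayed between -1.46 and -1.17 for LSK day 1 and between -1.23 and -1.02 for LSK day 2. For LSK day 1 the adjusted p was 0.0895 without day 0 replicate 2, 0.0609 without day 0 replicate 3, 0.107 and 0.111 without LSK day 1 replicates 2 and 3, and 0.0518 without either medium array. For LSK day 2 it ran from 0.0687 to 0.126 with 1 day 0 array left out, was 0.0687 without LSK day 2 replicate 2, 0.0759 without either medium array, and 0.0668 and 0.0652 without LSK day 1 replicates 2 and 3. Without LSK day 2 replicate 3, 6 of the 40 genes (15%) passed between LSK day 2 and day 0, and 28.7% of all genes. Without LSK day 2 replicate 2, 2 (5%) passed between LSK day 1 and day 0, and 4.12% of all genes.

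Between days of co-culture, 0 of the 40 genes passed for LSK day 2 against day 1 and 0 for day 3 against day 1 (limma), and 0.00819% of all genes passed in each. At an unadjusted p under 0.05, 3 genes (7.5%) were lower and 0 higher on day 2, against 10.7% and 1.96% of all genes, and 0 differed on day 3. Between days 2 and 1, Prim2 was higher without overlap (2.5% of all genes) and Pold2 and Chaf1b were lower (9.89%). Between days 3 and 1, Pold2 was lower without overlap (11.5%) and 0 genes were higher (8.28%). On the probe sets used, LSK day 2 replicate 1 was more than 2-fold above both other LSK day 2 arrays in 16 of the 40 genes (40%, against 13.3% of all genes). It was more than 2-fold below both in 2 (5%, against 27.8%). Further probe sets of these genes went both ways on this array. That of Prim1 read 5.34, against 10.24 and 9.51 on the other LSK day 2 arrays, and that of Gins3 read 7.57, against 3.84 and 3.00. LSK day 3 replicate 2 was more than 2-fold above replicate 1 in 23 genes (57.5%, against 14.9%) and below it in 1, Rfc3 (2.5%, against 15.3%).

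The same 2 arrays read high for Mki67, a marker of cycling cells. Mki67 read 5.90, 6.65 and 3.57 on LSK day 1, 12.68, 4.54 and 6.17 on day 2 and 6.84 and 10.66 on day 3, against 9.13 and 8.76 in medium and 8.30, 7.65 and 7.17 at day 0. It was thus highest where Ptprc and the Gapdh 3' excess were highest, followed by the medium arrays. The median of the 40 genes relative to day 0 was 0.66 on LSK day 2 replicate 1 and 0.96 on LSK day 3 replicate 2, and -0.38 to 0.50 on the other 6 co-culture arrays. It was 1.01 and 1.08 on the medium arrays, where Ptprc lay at its lowest value. The part of blood cells, irradiation, RNA quality and spike-in level in the co-culture readings was not tested.

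Cdkn1a, the p53-induced inhibitor of cyclin-dependent kinases, was followed as a marker of arrest. It read 13.51, 13.83 and 13.73 on LSK day 1, 10.83, 13.74 and 13.40 on day 2 and 13.69 and 12.59 on day 3, against 13.15 and 12.75 in medium and 13.22, 13.57 and 13.64 at day 0. Its lowest readings were on the 2 arrays that stood apart and on medium replicate 2.

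**Figure D4:**
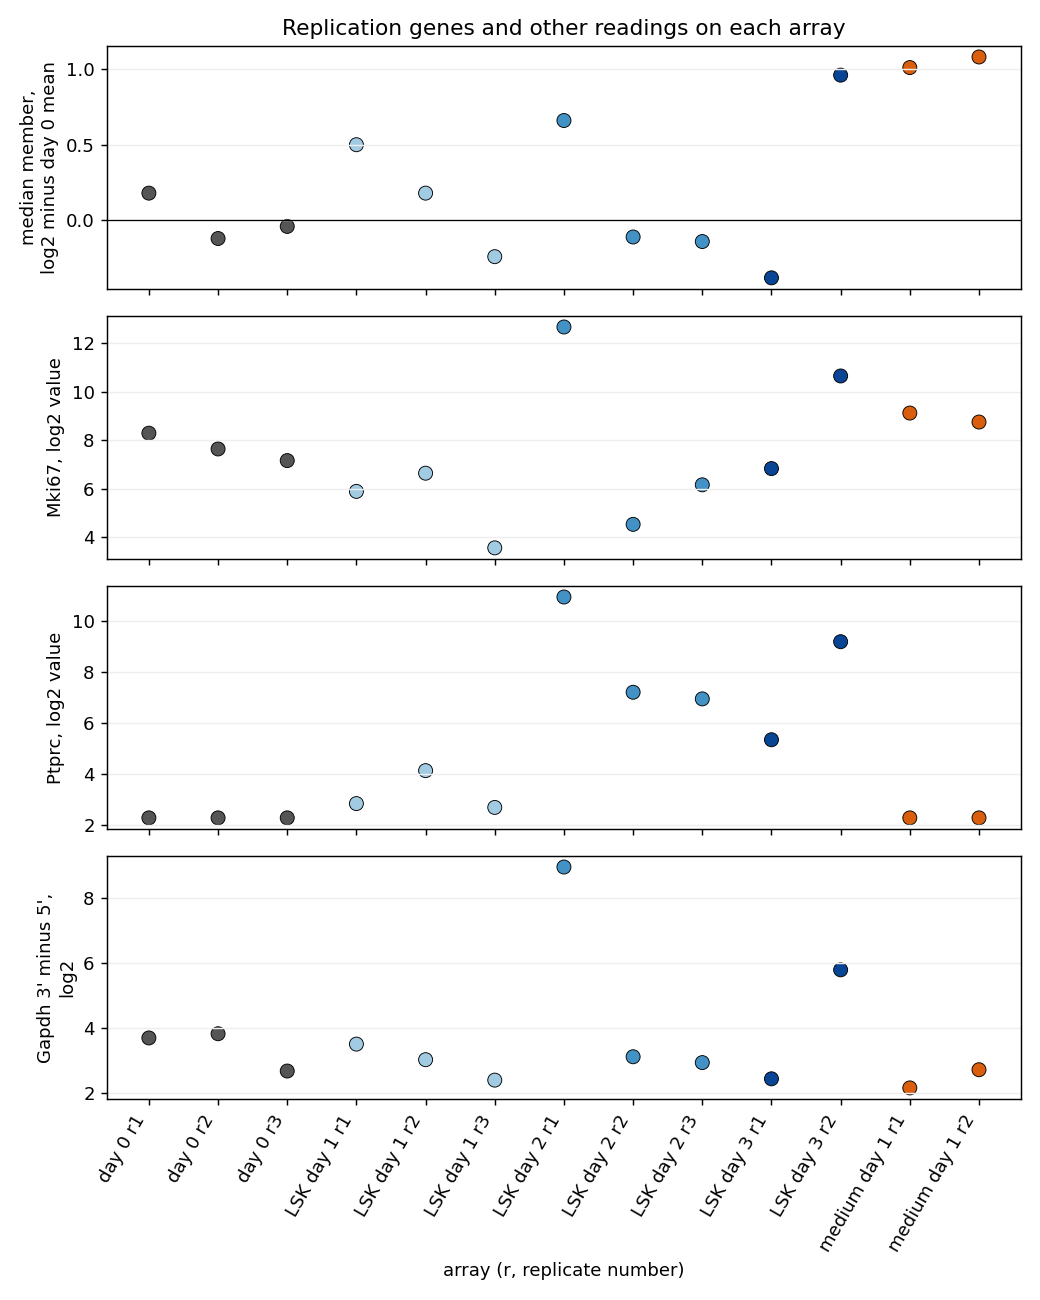
4 readings on each array: the median over the 40 genes of log2 value minus day 0 mean, the log2 values of Mki67 and Ptprc, and the log2 excess of the Gapdh 3' over the 5' probe set. LSK day 2 replicate 1 and LSK day 3 replicate 2 are the 2 highest for the lower 3 readings, while the medium arrays are the 2 highest for the median and have Ptprc at its lowest value.

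Several genes had further probe sets, which did not always go the same way. Between LSK day 1 and medium, 18 of 25 genes with several probe sets past the filter had all of them on the same side of 0, and 7 did not. Between LSK day 2 and day 0 it was 7 and 18. Affymetrix marks with an x in the suffix those probe sets that may bind other transcripts as well, and 8 of the 40 genes were read from such a set. The 13 x probe sets of the listed genes had a median change between LSK day 1 and medium of -0.08, and their 44 probe sets without a suffix letter one of -1.20, with 40 below 0. Over all tested probe sets these medians were 0.14 and 0. The x sets were not alone in this, as the 6 probe sets with an s in the suffix also had a median of -0.08, with 3 below 0. The 11 with an a had one of -0.87. Over all tested probe sets the medians for s and a were 0 and -0.01.

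Mcm6 shows the size of the difference. Its probe set without a suffix letter read 10.10, 9.92 and 8.92 on LSK day 1 arrays, against 12.58 and 12.42 on medium arrays, a change of -2.85 ± 0.49 (limma on single probe sets, adjusted p = 0.0119). The x probe set used for Mcm6 changed by -1.01 ± 0.71 over the same arrays. On LSK day 2 replicate 1 the first read 8.53, below day 0, and the second 12.54, above it. For Mcm4 the change was -1.51 ± 0.49 without a suffix letter and 0.37 on the x probe set, for Rfc2 -0.82 ± 0.38 and 0.91. Fen1 changed by -1.99 ± 0.61 on its other probe set and by -0.08 on the x one.

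Rrm1 had a second probe set that read high mainly in medium. It read 2.50 on all 3 LSK day 1 arrays, against 7.06 and 6.48 on medium arrays and 2.86, 2.65 and 4.53 at day 0. LSK day 1 was lower than medium (limma on single probe sets, adjusted p = 0.00174). No fold is given, as 2.50 was the reading on 7 of the 8 co-culture arrays, close to the lowest one of 2.35, and need not be above background. With each probe set tested alone, 8 of the listed genes had one that was lower on LSK day 1 than in medium, where 7.24% of all probe sets passed in either direction and 5.13% were lower. With x probe sets left out, the median change of the 40 genes was -1.50, 36 were below 0 and 4 passed, against 4.85% of all genes. The fourth was Mcm6.

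**Figure D5:**
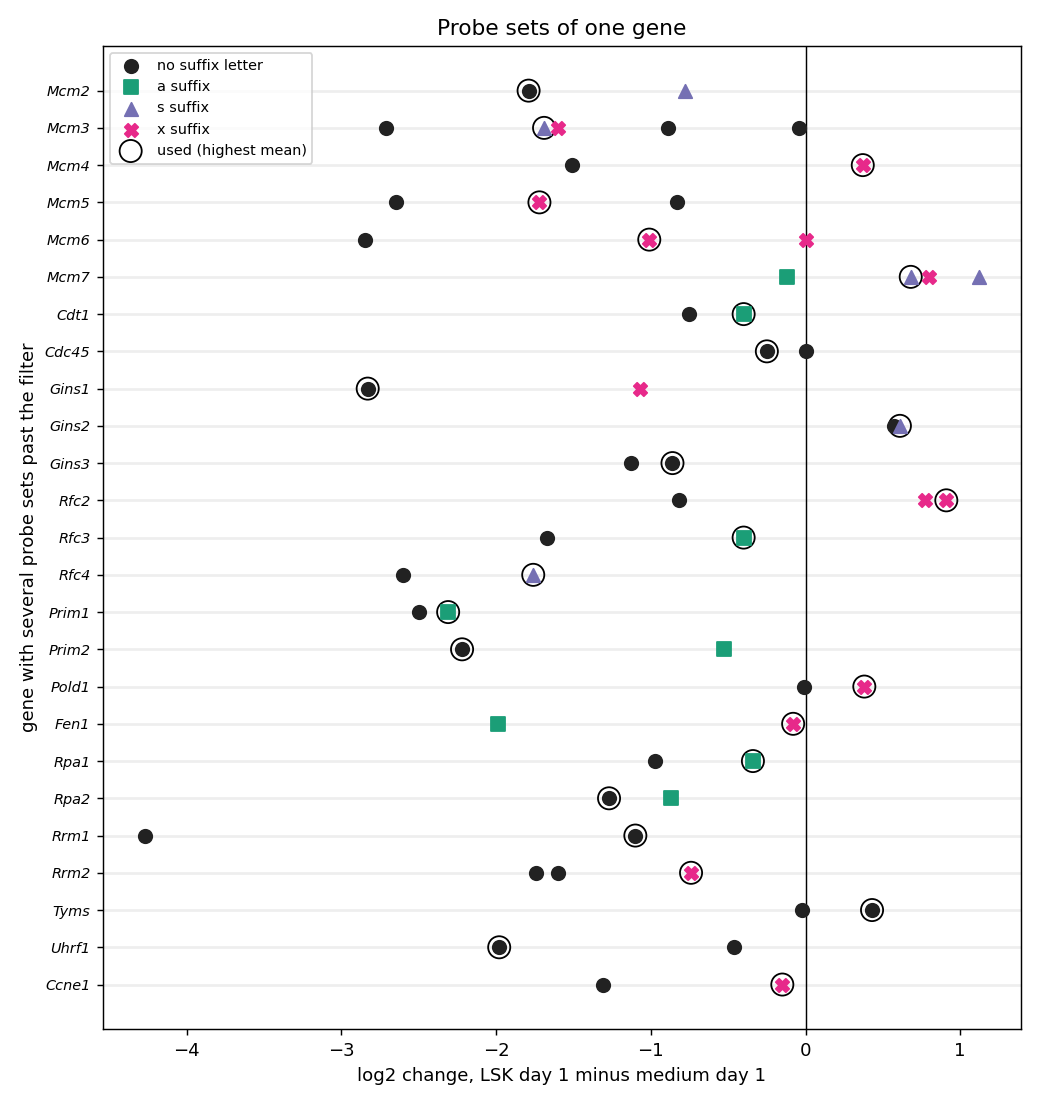
Log2 change between LSK day 1 and medium for every probe set past the filter of the 25 genes that have several, with the suffix shown by symbol and a ring around the probe set used. Probe sets without a suffix letter lie mostly left of 0, and the x probe sets of Mcm4, Mcm7, Rfc2 and Pold1 lie right of it.

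Of 45 further replication genes that are not among the 41, 43 were tested, and 4 were lower on LSK day 1 than in medium while 0 were higher. Of all genes, 3.05% were lower and 5.2% passed in either direction. Slbp, the binding protein of the histone mRNA stem loop, read 9.01, 8.66 and 8.56 on LSK day 1 arrays, against 12.66 and 12.06 on medium arrays (-3.61 ± 0.60, limma, adjusted p = 0.0162). Orc5 (-2.30 ± 0.47, adjusted p = 0.031) and Orc3 (-2.63 ± 0.64, adjusted p = 0.0474) are origin recognition subunits, and Mcmbp (-1.14 ± 0.26, adjusted p = 0.0402) binds Mcm proteins. The median of the 43 genes was -1.14 for LSK day 1 against medium and 0.76 for medium against day 0. In the latter 0 passed by limma, against 0.328% of all genes, and 10 were higher at an unadjusted p under 0.05, against 4.9%. Of 34 G1/S regulators, such as E2F factors, D cyclins and Cdk inhibitors, 32 were tested and 0 passed between LSK day 1 and medium by limma. At an unadjusted p under 0.05, 7 were lower and 0 higher, against 11.9% and 9.04% of all genes. Their median change was -0.40, and between medium and day 0 it was 0.24.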

How the data were processed

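RNA of 13 UG26-1B6 samples was hybridised to Affymetrix mouse arrays. The deposited table holds 1 log2 value per probe set and array, between 2.28 and 15.7, with the log2 scale read from this range. RMA and GCRMA are named per the submitters' processing notes, without saying which made the values. The table was used as deposited, so changes of processing upstream cannot be separated here, and the number of arrays limits precision.

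Arrays were grouped by title. Of 45101 probe sets, 34945 had 1 gene symbol and were no controls, 932 had several symbols and 9160 had none. A probe set entered if 2 or more arrays exceeded 2.38, the median of all values, and a gene was read from its single-symbol probe set with the highest mean, giving 12205 genes. All arrays entered 1 fit of group means in limma 3.58.1 (R 4.3.3, lmFit, eBayes), with 7 contrasts and Benjamini-Hochberg adjustment over the 12205 genes at 0.05. The fit was tested on simulated data. Promoter windows were searched and figures drawn with Python 3.11.15.

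The genes, roles and lists were chosen with earlier results of these data known. Per-array values were given for a named subset of the genes and any other that passed, and other genes only if a listed one passed. Mcm7 and the genes of the probe set comparison were picked after their values were seen. Alternatives varied the filter, scaling, choice of probe set, variance model, arrays in the fit and replicate block. Leaving out x probe sets, testing each probe set alone and leaving out both arrays that stood apart were added after seeing the data.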

Additional observations from a re-analysis of the deposited data

How the results depend on the processing

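The numbers of listed genes past the threshold moved with the arrays in the fit, and so did those of all genes. With 1 array left out in turn, they ran from 0 to 7 for LSK day 1 against medium (3 in the full fit), 0 to 3 for medium against day 0 (1), 0 to 2 for LSK day 1 against day 0 (1), 0 to 6 for LSK day 2 against day 0 (1), 0 to 1 for LSK day 3 against day 0 (0), 0 to 2 for LSK day 2 against day 1 (0) and 0 to 0 for LSK day 3 against day 1 (0). A group left with 1 array was assumed to vary like the others. Without LSK day 2 replicate 1 and LSK day 3 replicate 2 together the first 3 counts were 15, 3 and 2 (21.1%, 3.04% and 13.6% of all genes), LSK day 3 against day 0 gave 2 (5.65%) and LSK day 3 against day 1 gave 1 (0.86%). With array weights the counts were 26 (2 higher, 24 lower), 23 higher, 8 and 5 for the first 4 comparisons and 3 for LSK day 2 against day 1, while 52.6%, 29.4%, 29.4%, 20.8% and 10.4% of all genes passed. Fitting only the groups compared gave 14, 0, 3 and 0 for the first 4, with 37.5%, 0.68%, 14.6% and 0% of all genes. A filter above 4 gave 0, 0 and 0 against day 0 for medium, LSK day 1 and LSK day 2, and quantile scaling gave 0 for medium against day 0, with 0.151%, 1.3%, 2.7% and 0.229% of all genes. Centring arrays on their measured probe sets gave 1 for LSK day 1 against medium and 0, 0 and 0 against day 0 for medium, LSK day 1 and LSK day 2, with 2.06%, 0.0328%, 0.959% and 0.819% of all genes, and moved the median change of all genes to 0.08 in the first comparison and to 0.49 for LSK day 2 against day 0. Under it the median of the listed genes was -0.86 between LSK day 1 and medium. Averaging a gene's probe sets gave 5 for LSK day 1 against medium (5.56% of all genes), and testing each probe set alone gave 8, 4 and 3 for LSK day 1 against medium, medium against day 0 and LSK day 2 against day 0. With the replicate block, 3 genes passed between LSK day 1 and medium and 0, 0 and 0 against day 0 for medium, LSK day 1 and LSK day 2 (0.0655%, 0.844% and 0.213% of all genes). Deviations from group means had a median correlation of 0 between same-numbered arrays (-0.37 to 0.26, 23 pairs, 8 above 0.1). Between other arrays it was also 0 (-0.38 to 0.38, 44 pairs, 11 above 0.1). In groups of 2 arrays these deviations mirror each other, so this comparison cannot decide whether the numbers pair the samples. They were not taken to do so in the full fit. The cause of these differences was not tested. No setting turned the direction of a call. Probe sets near their lowest value, such as those of Tyms and Cdc45, have little or no room to show a decrease.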
